A study of Mus musculus with 48 samples.

Results

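The first step of reprogramming was followed here: from mouse embryonic fibroblasts (MEFs) on day 0 to cells in which Oct4, Sox2, Klf4 and c-Myc (OSKM) had been induced for 3 days. It covers 6 of the 48 RNA-seq libraries of the series, 3 of MEFs and 3 of Control cells, and 9934 of the 24012 genes in the table. A gene was taken when it reached 1 FPKM (fragments per kilobase of transcript, scaled to a common number of mapped fragments) in at least 3 of the 6 libraries. The remaining 42 libraries belong to later days or to cells that overexpress *Mettl14* or *Mettl3*.

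All cells came from reprogrammable MEFs of *Rosa26*-M2rtTA; *Col1a1*-4F2A; *Oct4*-GFP mice, in which doxycycline switches on a tetO-OSKM transgene. The MEF group had no doxycycline and grew in DMEM with fetal bovine serum and glutamine. The day 3 Control group carried an empty overexpression vector and was kept in 1 µg/ml doxycycline in ES medium, which adds nucleosides, nonessential amino acids, 2-mercaptoethanol and LIF and holds more serum. The transgene, the vector, doxycycline and the medium therefore change together, and their effects cannot be told apart in these libraries. The labels do not say whether the 3 libraries of a group come from separate cultures or embryos, so p-values measure the spread between libraries only.

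As background, OSKM-driven reprogramming of fibroblasts is known to proceed in stages. The fibroblast program is shut off and epithelial features appear first, in what is called a mesenchymal-to-epithelial transition, and the cells' own pluripotency network is switched on late and in a minority of cells. Cell cycle arrest and apoptosis through p53 and the *Cdkn2a* locus, innate immune signaling and secreted inflammatory factors are known to influence how many cells complete the process. RNA of a whole culture shows averages: fewer cells that express a gene and less RNA per cell cannot be told apart.

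The estimated depth was 12.9 to 26.9 M fragments in MEFs and 15.5 to 24.5 M on day 3. Small and ribosomal RNAs made up 37.6% to 39.8% of the FPKM sum of these 6 libraries. Libraries of the same group correlated at 0.966 to 0.976 and libraries of different groups at 0.852 to 0.870 (Pearson's r across genes on the log2 scale, which are not independent replicates). The first principal component held 76.3% of the variance and separated MEFs from day 3, and the second held 8.01%.

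Of the 9934 genes, 1515 were called higher and 874 lower on day 3 (limma on log2(FPKM + 1), fold change of at least 1.5 and Benjamini-Hochberg adjusted p of at most 0.05). These calls are the background for the gene groups that follow: 15.3% of tested genes were called higher and 8.80% lower. At the adjusted p alone, without the fold change, 35.0% were higher and 18.0% lower. Changes were large in both directions, with 176 genes up and 107 down by at least 2 on the log2 scale, and 466 of the genes called higher lay on average under 1 FPKM in MEFs. The median gene was 0.113 higher on day 3. When libraries were scaled to a common median ratio this shift went to 0.006 and the calls to 1230 higher and 1048 lower, and after quantile normalization to -0.017 with 1180 higher and 1101 lower, so the share of calls that were higher went from 63.4% to 54.0% and 51.7%. For a single gene, 3 against 3 libraries allow no exact permutation p (two-sided) under 0.1, so calls rest on limma, which shares the spread across genes. The groups did not overlap for 1513 of the 1515 genes called higher and 872 of the 874 called lower. A lack of overlap therefore adds little to a call. Log2 changes below are of FPKM + 1, which understates the change of genes at low levels, and the standard error (SE) is given for the leading genes of a group.

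**Figure D1:**
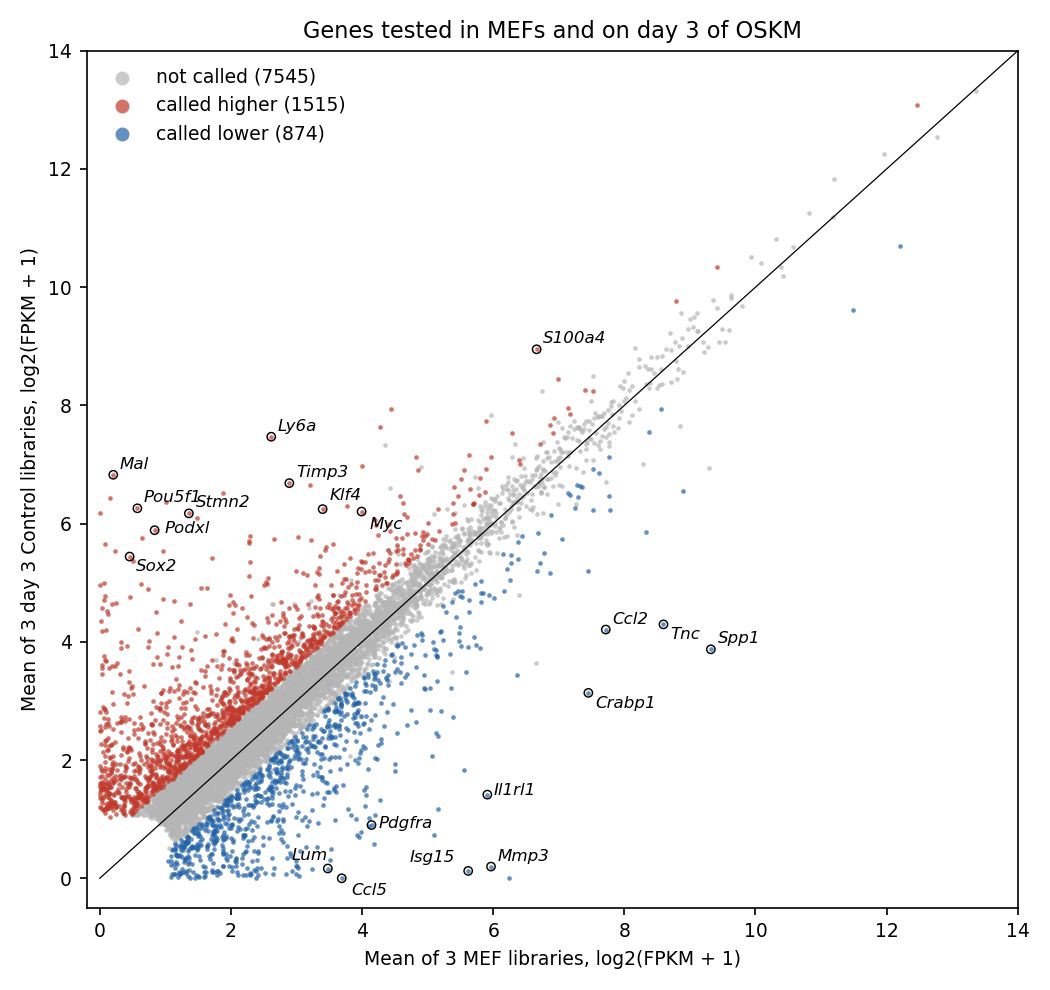
Mean level of each of the 9934 tested genes in the 3 MEF libraries (x axis) and the 3 day 3 Control libraries (y axis), both as log2(FPKM + 1), with the line of equality. Red points are the 1515 genes called higher and blue points the 874 called lower; *Mal* and *Pou5f1* lie far above the line and *Spp1*, *Isg15* and *Mmp3* far below it.

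The 4 factors of the transgene were all higher on day 3. *Pou5f1*, which codes for Oct4, lay at 0.555, 0.440 and 0.470 FPKM in MEFs and at 83.2, 65.8 and 77.8 FPKM on day 3. *Sox2*, its partner on DNA, lay at 0.375, 0.405 and 0.333 FPKM in MEFs and at 44.6, 41.1 and 41.7 FPKM on day 3. Both were near 0 before induction and on day 3 were in the range of well expressed genes. *Klf4* was already present in MEFs, at 9.45, 9.23 and 9.96 FPKM, and reached 82.0, 67.0 and 75.6 FPKM. *Myc* rose from 14.6, 14.9 and 15.2 FPKM to 76.6, 66.8 and 74.8 FPKM. In log2 terms the rises were 5.68 for *Pou5f1*, 4.99 for *Sox2*, 2.84 for *Klf4* and 2.21 for *Myc*, with SEs of 0.09, 0.07, 0.09 and 0.08 and adjusted p from 2e-10 to 1.5e-08. Gene-level FPKM does not separate transgene from endogenous transcripts, so these values check the induction and say nothing about the cells' own alleles. *Mettl14* lay at 4.30 to 5.37 FPKM in MEFs and 4.56 to 7.47 FPKM on day 3, and *Mettl3* at 4.19 to 5.39 and 3.33 to 5.06 FPKM. Neither passed the test (adjusted p 0.25 and 0.52).

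Among the 15 largest rises, genes of epithelia and of specialized tissues outside the fibroblast lineage stood beside *Pou5f1* and *Sox2*. *Mal*, a membrane protein of apical transport in epithelia, had the largest rise: 0.234, 0.0785 and 0.146 FPKM in MEFs against 112, 103.5 and 122 FPKM on day 3 (log2 change 6.62, SE 0.09, adjusted p 2e-10). *Aqp5*, the water channel of salivary and other glands, was at 0, 0.153 and 0.199 FPKM in MEFs and at 93.4, 73.9 and 89.8 FPKM on day 3. *Slurp1*, a small secreted protein of keratinocytes, went from at most 0.156 FPKM to 53.5, 36.3 and 58.7 FPKM. These 3 genes were all but silent in every MEF library. All of the 15 but *Anxa8*, *Ly6a* and *Stmn2* passed the filter through day 3 alone and so had to differ. The 15 were also picked as large rises without overlap, so their p-values and separation are no further support. *Anxa8*, an annexin, rose by 5.35 on the log2 scale and *Perp*, a desmosomal membrane protein and p53 target, by 5.12. *Krt14* and *Krt16*, keratins of stratified epithelia, rose by 4.92 and 4.69.

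Other members of the 15 belong to heart, blood and nerve. *Nppb*, the B-type natriuretic peptide of heart muscle, lay at 0.126 to 0.248 FPKM in MEFs and at 46.2, 32.3 and 57.3 FPKM on day 3. *Hbb-y*, an embryonic beta-like globin, was listed at 0 in all 3 MEF libraries and at 36.7, 29.8 and 24.3 FPKM on day 3. *Stmn2*, a microtubule regulator of neurons, went from 1.87, 1.36 and 1.46 FPKM to 68.0, 71.8 and 73.7 FPKM. Each of the 3 was high in every day 3 library, as genes picked for a large rise without overlap had to be. *Podxl*, the sialomucin of kidney podocytes and of pluripotent cells, rose by 5.05, *Ano1*, a calcium-activated chloride channel, by 4.85, and *Ly6a*, which codes for the surface antigen Sca-1, by 4.86. *Ly6a* was the only gene of the 15 with more than 4 FPKM in MEFs, at 4.87, 4.75 and 5.76 FPKM, and it reached 177.5, 165 and 186 FPKM. Most markers of other lineages were not tested. Of 18 markers of skeletal muscle, nerve and neural crest only 3 were tested, *Stmn2*, *Tubb3* and *Nes*, all called higher, and none of the other 15 exceeded 0.551 FPKM in any library. *Tubb3*, a neuronal tubulin, went from 3.35, 3.71 and 4.49 FPKM to 57.9, 43.1 and 48.8 FPKM. Of 14 endothelial markers 3 were tested: the receptor *Tek* was at 0.0484, 0.00768 and 0.0502 FPKM in MEFs and at 6.55, 6.77 and 6.11 FPKM on day 3, *Eng* rose by 0.64 and *Flt1* fell by 1.11, while *Pecam1* and *Cdh5* stayed at or below 0.538 FPKM. The *Eng* call is lost under median-ratio scaling, under quantile normalization and with small RNAs left out. Of 20 markers of trophoblast and primitive endoderm 4 were tested, and *Krt8* was the only one called higher.

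The 15 largest falls reached from 3.25 to 5.77 on the log2 scale. They were picked in the same way, and *Mmp3* and *Angptl4* among them passed the filter through MEFs alone. *Mmp3*, the protease stromelysin-1, led them: 55.7, 58.3 and 70.6 FPKM in MEFs against 0.333, 0.0753 and 0.0320 FPKM on day 3 (log2 change -5.77, SE 0.12, adjusted p 8.1e-10). *Spp1*, which codes for osteopontin, went from 635, 633 and 646 FPKM to 15.7, 13.3 and 12.0 FPKM. *Tnc*, the matrix protein tenascin C, went from 370, 383 and 405 FPKM to 19.3, 17.0 and 19.6 FPKM. *Spp1* and *Tnc* were among the well expressed genes of these MEFs and kept a measurable level on day 3, while *Mmp3* was near 0. *Crabp1*, a cytoplasmic carrier of retinoic acid, went from 154, 181 and 187 FPKM to 8.14, 8.27 and 6.97 FPKM. *Serpinf1*, a secreted inhibitor of new vessels, fell by 3.73, *Angptl4*, an inhibitor of lipoprotein lipase, by 3.61, and *Il1rl1*, the receptor of interleukin-33, by 4.50. The remaining members of the 15 (*Isg15*, *Lgals3bp*, *Bst2*, *Ccl5*, *Ccl2*, *Cxcl12*, *Lum* and *Pdgfra*) are described with their groups.

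**Figure D2:**
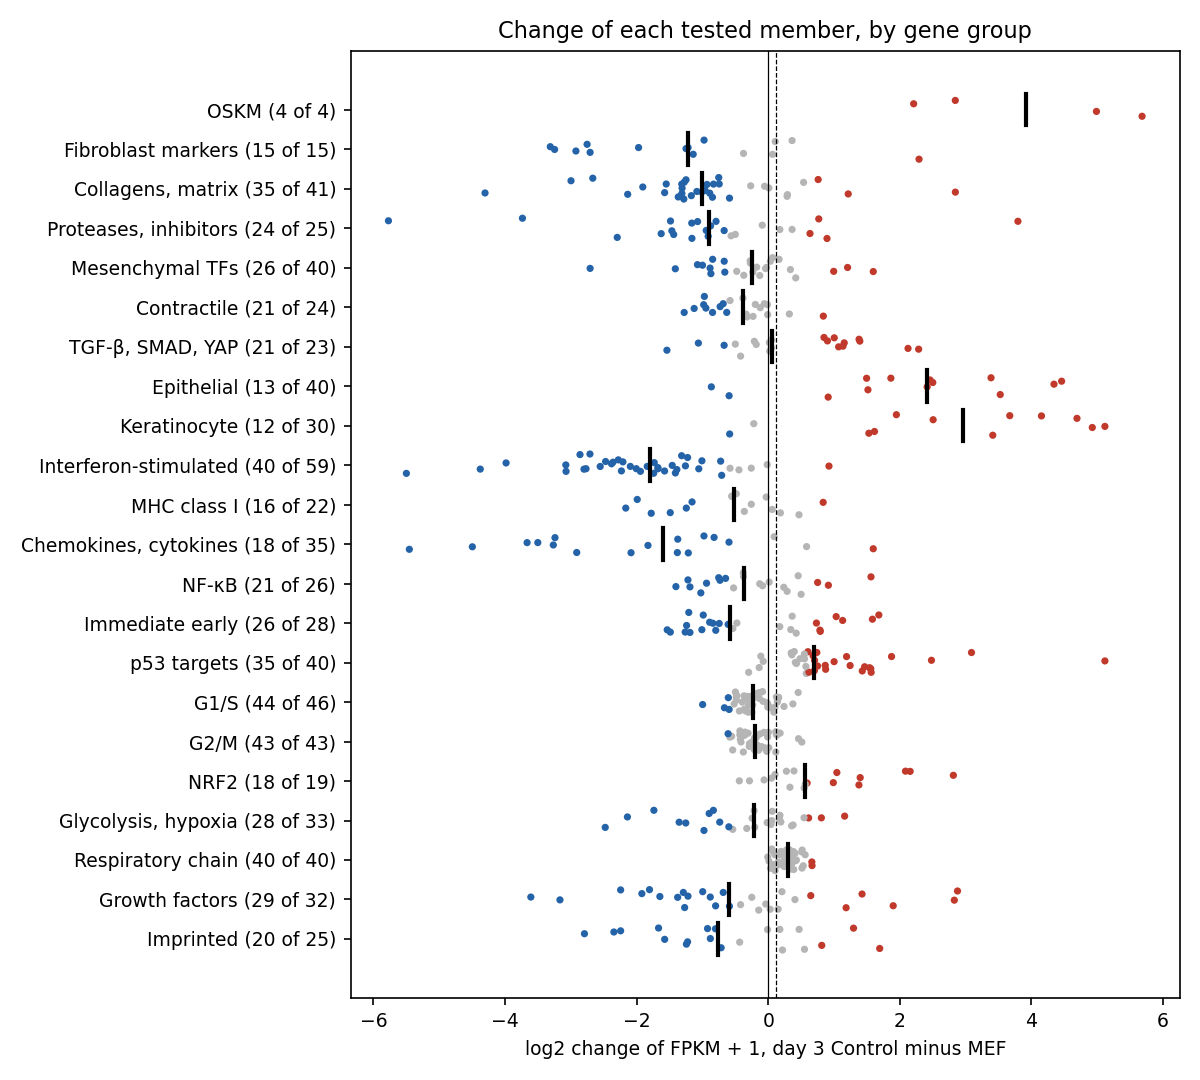
Log2 change of FPKM + 1 from MEFs to day 3 (x axis) for every tested member of 22 gene groups, with the number tested and listed beside each name. Points are genes, red where called higher, blue where called lower and gray otherwise; black bars are group medians, the solid line is 0 and the dashed line the median of all genes, 0.113. Interferon-stimulated and chemokine genes lie mostly to the left, epithelial, keratinocyte and p53 target genes mostly to the right, and mitosis genes close to 0.

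Fibroblast identity genes moved unevenly. Of 15 fibroblast markers, all tested, 10 were called lower and 1 higher (median log2 change -1.22). Of these, 5 passed the filter through MEFs alone and so had to differ; among the 10 expressed in both groups, 5 were called lower and 1 higher, with a median of -0.68. *Pdgfra*, the receptor of platelet-derived growth factor A, lay at 16.5, 16.2 and 17.3 FPKM in MEFs and at 0.995, 0.915 and 0.691 FPKM on day 3. *Lum*, the collagen-binding proteoglycan lumican, went from 10.2, 9.42 and 10.8 FPKM to 0.182, 0.128 and 0.0544 FPKM. *Thy1*, the surface antigen whose loss is used to follow early reprogramming, went from 36.6, 31.8 and 35.6 FPKM to 4.10, 4.08 and 4.71 FPKM. The groups did not overlap for any of them, and *Pdgfra* and *Lum* passed the filter through MEFs alone. *Twist2*, *Postn*, *Pdgfrb* and *Fap* fell by 2.71, 2.92, 1.97 and 1.14. The collagen genes *Col1a1*, *Col1a2* and *Col3a1* fell less, by 0.98, 1.22 and 1.25. *S100a4*, a calcium-binding protein also called fibroblast-specific protein, was the exception and rose from 83.4, 104 and 114 FPKM to 562, 442 and 476 FPKM. *Prrx1*, a homeobox factor of limb mesenchyme, lay at 63.2 to 66.9 FPKM in MEFs and 65.2 to 71.0 FPKM on day 3, and the small proteoglycan *Dcn* at 11.2 to 12.9 and 12.7 to 13.4 FPKM. The intermediate filament *Vim* was at 678 to 727 FPKM in MEFs and 499 to 561 FPKM on day 3 (log2 change -0.38, under the fold threshold).

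Most matrix genes were lower on day 3. Of 41 collagens and other matrix proteins 35 were tested; 26 were called lower and 3 higher, with a median of -1.01, and 31 of the 35 were expressed in both groups. Beside *Tnc*, *Thbs2* (thrombospondin 2) fell by 3.00, *Col6a2* by 2.67, *Mfap4* by 2.14, *Ltbp2* by 1.91, *Loxl2* by 1.57 and *Bgn* by 1.55. *Fn1*, fibronectin, went from 127, 129.5 and 139.5 FPKM to 54.4, 49.3 and 54.0 FPKM. The 3 that rose were *Efemp1* (2.84), *Fbln5* (1.22) and *Ecm1* (0.76). Among 25 matrix proteases and inhibitors 24 were tested, with 15 lower and 4 higher, and 9 of them passed the filter through MEFs alone. *Mmp19*, *Mmp13*, *Mmp10*, *Plat* and *Serpine2* fell by 2.29, 1.63, 1.49, 1.46 and 1.44. *Timp3*, an inhibitor of these proteases that stays bound to matrix, went the other way, from 6.66, 5.91 and 6.68 FPKM to 95.1, 101 and 109.5 FPKM (log2 change 3.79, SE 0.08). *Timp1* was at 17.2 to 22.9 FPKM in MEFs and 17.2 to 19.2 FPKM on day 3, with overlapping groups.

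Transcription factors of mesenchymal cells changed in fewer cases. Of 40 listed 26 were tested; 9 were called lower and 3 higher, with a median of -0.25. They include 4 repressors of epithelial genes that fell. *Snai2* went from 16.1, 14.8 and 14.6 FPKM to 4.42, 4.78 and 6.17 FPKM (log2 change -1.41). *Snai1*, *Zeb1* and *Zeb2* fell by 0.88, 0.87 and 1.00. *Runx1* fell by 1.08, and *Prrx2*, *Tbx18* and *Scx* rose by 1.60, 1.21 and 0.99. Of 24 contractile genes 21 were tested, with 9 lower and *Csrp1* higher (0.84). *Tagln*, *Smtn*, *Des* and *Acta2* (smooth muscle actin) fell by 1.28, 1.13, 0.98 and 0.97. Among genes induced by TGF-β or by YAP and SRF, 10 of 21 tested were called higher and 3 lower. The rises were led by the inhibitors of differentiation *Id1* (25.9, 29.6 and 26.7 FPKM to 160, 114 and 141 FPKM) and *Id2* (10.2, 9.79 and 9.42 FPKM to 47.8, 45.4 and 44.9 FPKM), which are known targets of BMP signaling, and included the inhibitory SMAD genes *Smad6* and *Smad7* (1.38 and 1.07). *Tgfb1*, *Ankrd1* and *Inhba* fell by 1.54, 1.06 and 0.67.

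A part of the epithelial program appeared. Of 40 epithelial genes 13 were tested; 11 were called higher and 2 lower, and 8 of the 13 passed the filter through day 3 alone, so they had to differ. The other 27 did not pass the filter, and the highest value of any of them in any library was 1.498 FPKM. *Dsp*, the plaque protein desmoplakin of desmosomes, was at 0.179, 0.120 and 0.116 FPKM in MEFs and at 25.2, 22.6 and 24.3 FPKM on day 3. Its partners plakophilin 1 (*Pkp1*) and plakoglobin (*Jup*) rose by 3.53 and 2.46, and envoplakin (*Evpl*) by 2.50. *Dsp*, *Pkp1* and *Evpl* passed the filter through day 3 alone, and *Jup* was expressed in both groups. *Krt8* went from 0.705, 0.469 and 0.445 FPKM to 35.0, 25.7 and 30.4 FPKM, and *Krt19* from 2.06, 1.24 and 2.46 FPKM to 32.2, 27.7 and 27.4 FPKM. *Krt18*, the usual filament partner of *Krt8*, was at 2.66, 3.96 and 4.32 FPKM in MEFs and 2.69, 2.02 and 1.51 FPKM on day 3; it was called lower, although the groups overlap. The second gene called lower was the transcription factor *Klf5*, which fell by 0.86. *Cdh1*, E-cadherin, the adhesion molecule that marks the mesenchymal-to-epithelial transition, was at 0.0167, 0.0397 and 0.0519 FPKM in MEFs and at 2.07, 1.98 and 1.73 FPKM on day 3 (log2 change 1.49, SE 0.08, adjusted p 2.3e-07). Its level was low. All 3 day 3 libraries lay above all MEF libraries, but *Cdh1* passed the filter through day 3 alone and so had to differ. *Epcam* stayed at 0.129 FPKM or less.

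Of 30 keratinocyte genes 12 were tested, 10 of them called higher and 1 lower, and 9 of the 12 passed through day 3 alone. *Krt14* lay at 0.0485, 0.0235 and 0.0613 FPKM in MEFs and at 36.6, 26.2 and 30.2 FPKM on day 3. *Sfn* (14-3-3 sigma), *Krt13* and *Krt6a* rose by 4.15, 3.67 and 3.41, and the crosslinking enzyme *Tgm1* by 2.51. *Krt17* was listed at 0 in the 3 MEF libraries and lay at 2.14, 1.89 and 2.17 FPKM on day 3. *Krt5*, the filament partner of *Krt14* in basal keratinocytes, stayed at 0.0767 FPKM or less in all 6 libraries. *Trp63*, the master regulator of stratified epithelium, stayed at 0.156 FPKM or less. The keratin genes that rose thus stood beside a basal partner and a regulator near 0. *Ivl*, the cornified envelope protein involucrin, was called lower and went from 1.19, 1.31 and 1.14 FPKM to 0.860, 0.140 and 0.504 FPKM.

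**Figure D3:**
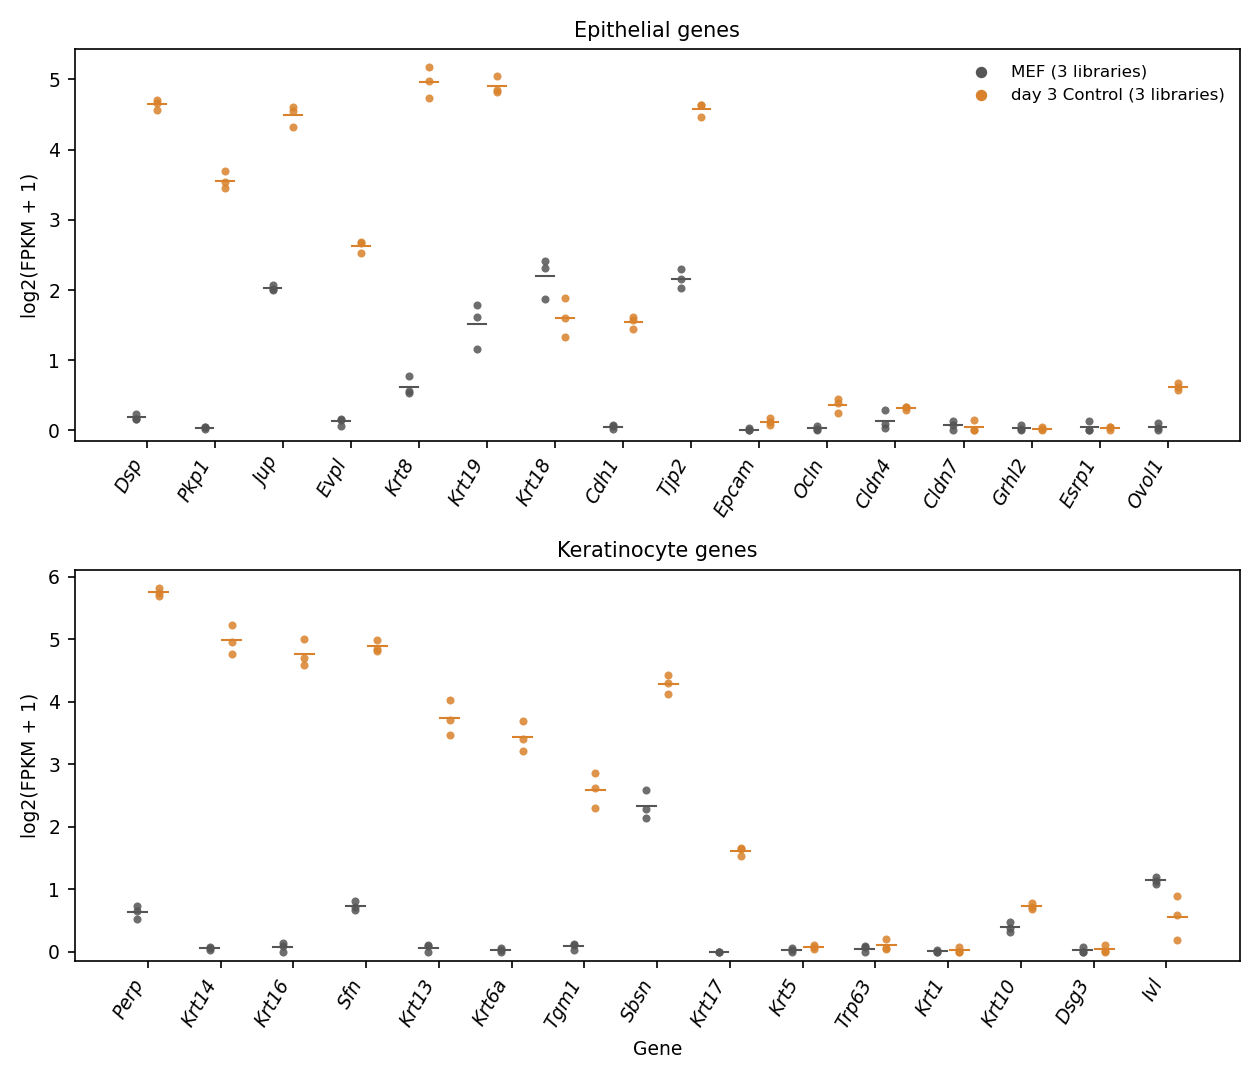
Levels of 16 epithelial genes (top) and 15 keratinocyte genes (bottom) in each library, as log2(FPKM + 1) on the y axis; gray points are the 3 MEF libraries, orange points the 3 day 3 Control libraries, and short lines their means. *Dsp*, *Krt8*, *Perp* and *Krt14* are separated by more than 4 units, while *Epcam*, *Krt5* and *Trp63* are near 0 in both groups.

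The endogenous pluripotency network was not detectable on day 3 beyond a few genes. Of 24 network genes 4 were tested: the zinc finger gene *Zfp296* rose by 1.35, *Klf2* and *Tbx3* fell by 0.99 and 0.88, and *Tet2* did not pass. *Nanog* stayed at 0.0759 FPKM or less in all 6 libraries, *Esrrb* at 0.0351 FPKM or less and *Zfp42* at 0.309 FPKM or less. Of 25 genes known to rise early in reprogramming 6 were tested. *L1td1*, an RNA-binding protein of pluripotent cells, went from 0.128, 0.123 and 0.0321 FPKM to 20.6, 19.3 and 23.4 FPKM (log2 change 4.33, SE 0.09), and *Cdh1* also rose. Both passed the filter through day 3 alone and so had to differ. *Etv4* fell by 0.78. *Sall4* was at 0.0176 to 0.0284 FPKM in MEFs and at 0.0716 to 0.138 FPKM on day 3, and *Lin28a* was at 0.0182 FPKM or less on day 3. Other untested genes of these lists also moved without overlap while staying under 1 FPKM in every library. Among them *Fgf4*, *Lin28b* and *Trim71* were higher on day 3 and *Tet1* and *Lin28a* lower. *L1td1* was the only gene of either list to exceed 10 FPKM on day 3 after lying under 1 FPKM in MEFs.

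Most tested genes induced by type I interferon were lower on day 3. Interferon signals through receptor-bound kinases to a complex of transcription factors, STAT2 and IRF9 among them, that binds the interferon-stimulated response element (ISRE) in the promoters of antiviral genes. Of 59 such genes 58 were in the table and 40 were tested; 35 were called lower, 1 higher and 4 did not pass, with a median of -1.79 against 0.113 for all genes (-3.15 with a pseudocount of 0.1). The filter was passed through MEFs alone by 27 of the 40, whose means had to differ. *Xaf1* was 1 of these and was not called. Of the 13 expressed in both groups 9 were called lower and 1 higher, with a median of -1.01. *Isg15*, a ubiquitin-like modifier and the antiviral gene with the largest fall, lay at 47.4, 49.1 and 47.9 FPKM in MEFs and at 0.0728, 0 and 0.198 FPKM on day 3 (log2 change -5.50, SE 0.08, adjusted p 2e-10). *Bst2* (tetherin), which holds budding virus at the cell surface, went from 32.5, 36.1 and 35.3 FPKM to 1.499, 1.21 and 1.07 FPKM. *Lgals3bp*, a secreted glycoprotein, went from 33.3, 31.7 and 35.1 FPKM to 0.635, 0.609 and 0.724 FPKM. All 3 were high in every MEF library and at 1.499 FPKM or below on day 3. *Isg15* and *Lgals3bp* passed the filter through MEFs alone. The 18 genes that were not tested never exceeded 3.10 FPKM.

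The promoters of many of these genes carry the response element, so it is shown for genes with large falls that hold a match before the start. RefSeq promoter windows of GRCm38.p6, which reach from 250 bases before to 50 bases after a gene's start, were searched on both strands for GAAANNGAAA, the ISRE core. A window was found for 42 of the 58 genes, and 21 of these 42 (50%) held a match, against 3.99% of all 27025 genes with a window and 9.48% of the 633 genes called lower that have one. The 633 include 27 genes of the list itself, 16 of them with a match. The list was written of genes known to be induced by interferon, so its high share is no result of these libraries. Matches may overlap, and a match in these letters is a description and not a measured binding site. The lines below give the 160 bases before the start for 6 of the genes with the largest falls whose matches lie there, with the matching bases in capitals. *Ifitm3* and *Ddx58* hold matches only after the start and are not shown. *Lgals3bp*, *Ifi204*, *Rtp4*, *Slfn2*, *Irf7* and *Oasl2* fell more than *Ifit3* but had no window or no match in those 160 bases.
Isg15: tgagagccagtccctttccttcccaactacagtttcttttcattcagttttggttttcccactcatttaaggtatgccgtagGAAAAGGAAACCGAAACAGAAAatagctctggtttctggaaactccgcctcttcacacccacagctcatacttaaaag
Bst2: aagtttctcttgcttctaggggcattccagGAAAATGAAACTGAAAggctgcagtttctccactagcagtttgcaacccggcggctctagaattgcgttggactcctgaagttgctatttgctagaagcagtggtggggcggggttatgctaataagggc
Ifit3: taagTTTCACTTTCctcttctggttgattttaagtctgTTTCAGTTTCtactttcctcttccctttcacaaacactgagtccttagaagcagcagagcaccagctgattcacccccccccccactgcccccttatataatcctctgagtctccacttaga
Ifit1: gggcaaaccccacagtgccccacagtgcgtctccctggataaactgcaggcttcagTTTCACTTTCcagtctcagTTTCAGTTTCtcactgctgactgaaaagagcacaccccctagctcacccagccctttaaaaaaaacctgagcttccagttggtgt
Gbp3: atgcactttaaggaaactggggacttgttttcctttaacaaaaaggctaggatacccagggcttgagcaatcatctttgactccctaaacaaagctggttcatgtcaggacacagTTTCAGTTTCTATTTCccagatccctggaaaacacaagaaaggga
Ifi203: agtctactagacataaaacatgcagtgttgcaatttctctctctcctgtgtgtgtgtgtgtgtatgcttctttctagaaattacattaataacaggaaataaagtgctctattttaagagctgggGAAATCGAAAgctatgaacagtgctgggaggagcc

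The stretches lie at chr4:156200819-156200978 (minus strand) for *Isg15*, chr8:71537473-71537632 (minus strand) for *Bst2*, chr19:34583369-34583528 (plus strand) for *Ifit3*, chr19:34640729-34640888 (plus strand) for *Ifit1*, chr3:142559884-142560043 (plus strand) for *Gbp3* and chr1:173942493-173942652 (minus strand) for *Ifi203*. In *Isg15*, whose level fell the most, 3 overlapping matches that begin 66 to 78 bases before the start form a run of 4 GAAA units. *Bst2* holds 2 overlapping matches, and *Ifit1* and *Ifit3* each hold 2 separate ones. *Ifit1* and *Ifit3*, which bind viral RNA, went from 4.80, 5.67 and 5.17 FPKM to 0.0773, 0.0736 and 0.0208 FPKM, and from 6.33, 7.13 and 7.46 FPKM to 0.359, 0.134 and 0.170 FPKM. *Gbp3*, a guanylate-binding GTPase, fell by 2.36, and *Ifi203*, a protein of the nuclear DNA-sensor family, by 2.23. Every gene shown was separated between the groups, as nearly all called genes were. *Isg15*, *Ifit3*, *Ifit1*, *Gbp3* and *Ifi203* passed the filter through MEFs alone and so had to differ.

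Components of the response itself were among the genes that fell. *Stat2* went from 2.58, 2.80 and 2.62 FPKM to 0.285, 0.553 and 0.311 FPKM, and *Irf9* from 5.64, 5.27 and 6.38 FPKM to 0.512, 0.644 and 0.584 FPKM. *Irf7*, which amplifies interferon production, went from 5.91, 6.28 and 7.79 FPKM to 0.115, 0.0385 and 0.131 FPKM. These 3 regulators passed the filter through MEFs alone, so they had to differ. The cytoplasmic RNA sensor *Ddx58* (RIG-I) fell by 2.28 and *Usp18*, which removes ISG15 from proteins, by 2.21. *Ifitm3*, a membrane barrier to virus entry, was by far the best expressed of the list and remained so: 342, 298 and 320 FPKM in MEFs and 54.5, 59.5 and 56.5 FPKM on day 3. The 1 gene called higher was *Lgals9* (galectin 9, 0.92), and the 4 that did not pass were *Trim25*, *Xaf1*, *Tor3a* and *Samhd1*. *Trim25* is called lower under median-ratio scaling and quantile normalization, which bring the count to 36.

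The interferon pathway outside these target genes changed less. Of 19 tested receptors, kinases, sensors and regulators 2 were called higher and 5 lower. *Ifngr2*, *Tmem173* (STING), *Mb21d1* (cGAS), *Irf1* and *Socs1* fell by 1.18, 0.94, 0.85, 0.71 and 0.62, and *Mavs* and *Jak2* rose by 1.23 and 0.59. The type I receptor genes *Ifnar1* and *Ifnar2* did not pass, and *Ifnb1* was listed at 0 in all 6 libraries. Of 16 tested genes of class I antigen presentation 6 were lower. *H2-Ke6*, called higher (0.83), lies in the MHC region but codes for a hydroxysteroid dehydrogenase. *B2m*, the light chain shared by class I molecules, went from 107, 95.9 and 99.9 FPKM to 27.7, 40.0 and 39.8 FPKM. *H2-K1* and the immunoproteasome subunit *Psmb8* fell by 1.78 and 2.16. Class I heavy chain genes are near-identical copies that share reads, so their single values are uncertain.

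**Figure D4:**
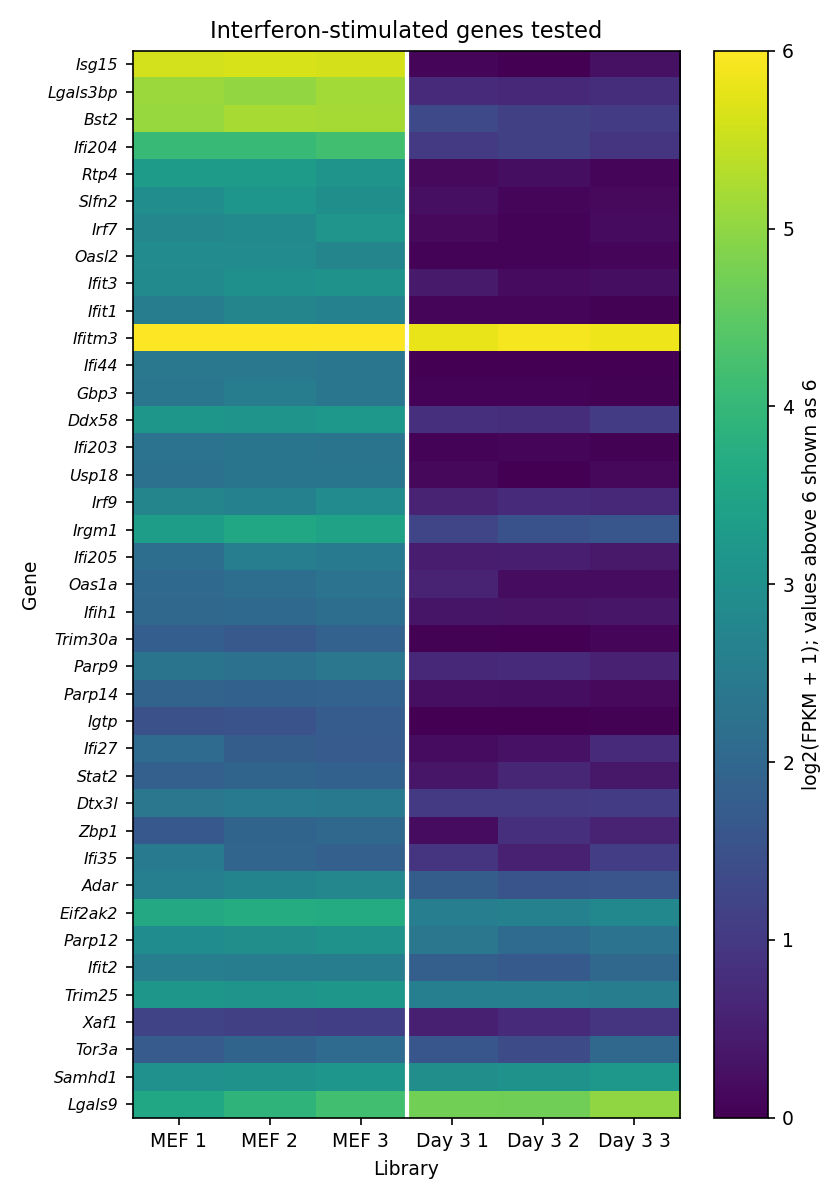
Level of 39 of the 40 tested interferon-stimulated genes (rows, ordered by log2 change) in the 3 MEF and the 3 day 3 libraries (columns), as log2(FPKM + 1) in color, with values above 6 drawn as 6. The 3 MEF columns are brighter than the 3 day 3 columns for *Isg15*, *Bst2* and nearly all other rows, and *Lgals9* in the last row is the reverse.

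Most tested chemokines and cytokines fell as well. Of 35 listed 18 were tested, and 15 were called lower and 1 higher, with a median of -1.60; 9 of the 18 passed the filter through MEFs alone, and of the 8 expressed in both groups 6 were lower and 1 higher. With a pseudocount of 0.1 the median was -3.27. *Ccl2*, the main attractant of monocytes, went from 179, 219 and 230 FPKM to 17.0, 17.1 and 18.3 FPKM (log2 change -3.50, SE 0.10, adjusted p 5.6e-09). *Cxcl1*, which attracts neutrophils, went from 16.4, 17.1 and 15.2 FPKM to 0.949, 0.493 and 1.07 FPKM. *Ccl5* was at 8.87, 12.1 and 14.8 FPKM in MEFs and was listed at 0 in all 3 day 3 libraries. No chemokine of these 3 overlapped between the groups, and *Cxcl1* and *Ccl5* passed the filter through MEFs alone. *Cxcl12* and *Cxcl5* fell by 3.27 and 2.91, and *Ccl7* went from 32.4, 32.8 and 30.4 FPKM to 8.92, 7.28 and 8.65 FPKM. *Il33* and its receptor *Il1rl1* fell together, by 2.08 and 4.50. *Cxcl2* was low in MEFs, at 1.70, 1.68 and 1.09 FPKM, and at 0, 0.208 and 0 FPKM on day 3. *Il6* was never above 0.437 FPKM and was not tested. *Ptgs2* (cyclooxygenase 2), which makes prostaglandins, was the 1 that rose, from 12.5, 13.3 and 13.4 FPKM to 38.2, 42.4 and 44.0 FPKM.

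Macrophages also make several of these factors. Their levels are given here for 20 macrophage and myeloid markers, most of which were too low to be tested. The 20 summed to 11.2 to 12.6 FPKM in MEFs and 8.69 to 9.34 FPKM on day 3, and without *Laptm5*, which rose, to 10.9 to 12.3 FPKM and 5.16 to 5.96 FPKM. Only 3 were tested: *Lyz2* fell from 4.84, 4.33 and 5.35 FPKM to 1.69, 1.501 and 1.42 FPKM, *Laptm5* rose by 1.83 on the log2 scale and *Cd68* did not pass. The defining markers *Adgre1*, *Csf1r* and *Ptprc* lay at 0.182 FPKM or less in every library and were not tested. Values this low can be apart by very little. *Adgre1* was at 0.1155, 0.02208 and 0.08654 FPKM in MEFs and at 0, 0.01959 and 0 FPKM on day 3. What part such cells have in the chemokine levels was not tested.

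Signaling genes tied to inflammation moved in both directions. Of 21 tested NF-κB genes 8 were lower and 3 higher. The inhibitor *Nfkbia*, itself a target, went from 32.5, 30.1 and 36.7 FPKM to 15.3, 13.5 and 12.2 FPKM. *Bcl3*, *Ier3* and *Nfkbiz* fell by 1.40, 1.19 and 1.02, and *Tnip1* rose by 1.56. Subunit genes *Nfkb1*, *Rela* and *Relb* did not pass. LIF was in the medium on day 3 only. *Osmr*, *Il6st* (gp130, the shared signaling chain) and *Socs3* fell by 1.60, 0.96 and 0.78, and 4 of the 14 tested genes of this pathway were lower in all. *Cish* was called higher (0.61). Of 26 tested immediate-early genes 13 were lower and 7 higher. *Jun* and *Fosb* fell by 1.21 and 1.24, *Egr3* and *Dusp6*, readouts of ERK signaling, by 1.49 and 1.53, and *Jund* and *Klf10* rose by 1.58 and 1.68.

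Many targets of p53 rose. Of 40 listed 35 were tested; 21 were called higher and none lower, with a median of 0.70, and 30 were expressed in both groups, of which 18 were called higher. *Cdkn1a*, which codes for the cyclin-dependent kinase inhibitor p21, went from 16.3, 17.6 and 17.9 FPKM to 66.0, 61.3 and 70.7 FPKM (log2 change 1.87, SE 0.08, adjusted p 5.2e-08). *Gdf15*, a stress hormone, went from 0.0808, 0.0399 and 0.0518 FPKM to 5.26, 4.29 and 5.20 FPKM. *Ccng1* went from 46.2, 49.5 and 49.9 FPKM to 135, 143 and 151 FPKM. Each was higher in all 3 day 3 libraries, and *Gdf15* passed the filter through day 3 alone. *Perp*, described above, *Ephx1* (3.09), *Phlda3* (1.56), *Btg2* (1.56) and *Ddit4l* (1.46) also rose. So did *Mdm2*, the ligase that degrades p53 (1.00), and the apoptosis gene *Bax* (0.70). *Trp53* itself was at 16.8, 17.6 and 17.7 FPKM in MEFs and 13.4, 12.6 and 14.6 FPKM on day 3, under the fold threshold. The count of 21 was 17 under median-ratio scaling and 15 after quantile normalization, with none lower in either.

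**Figure D5:**
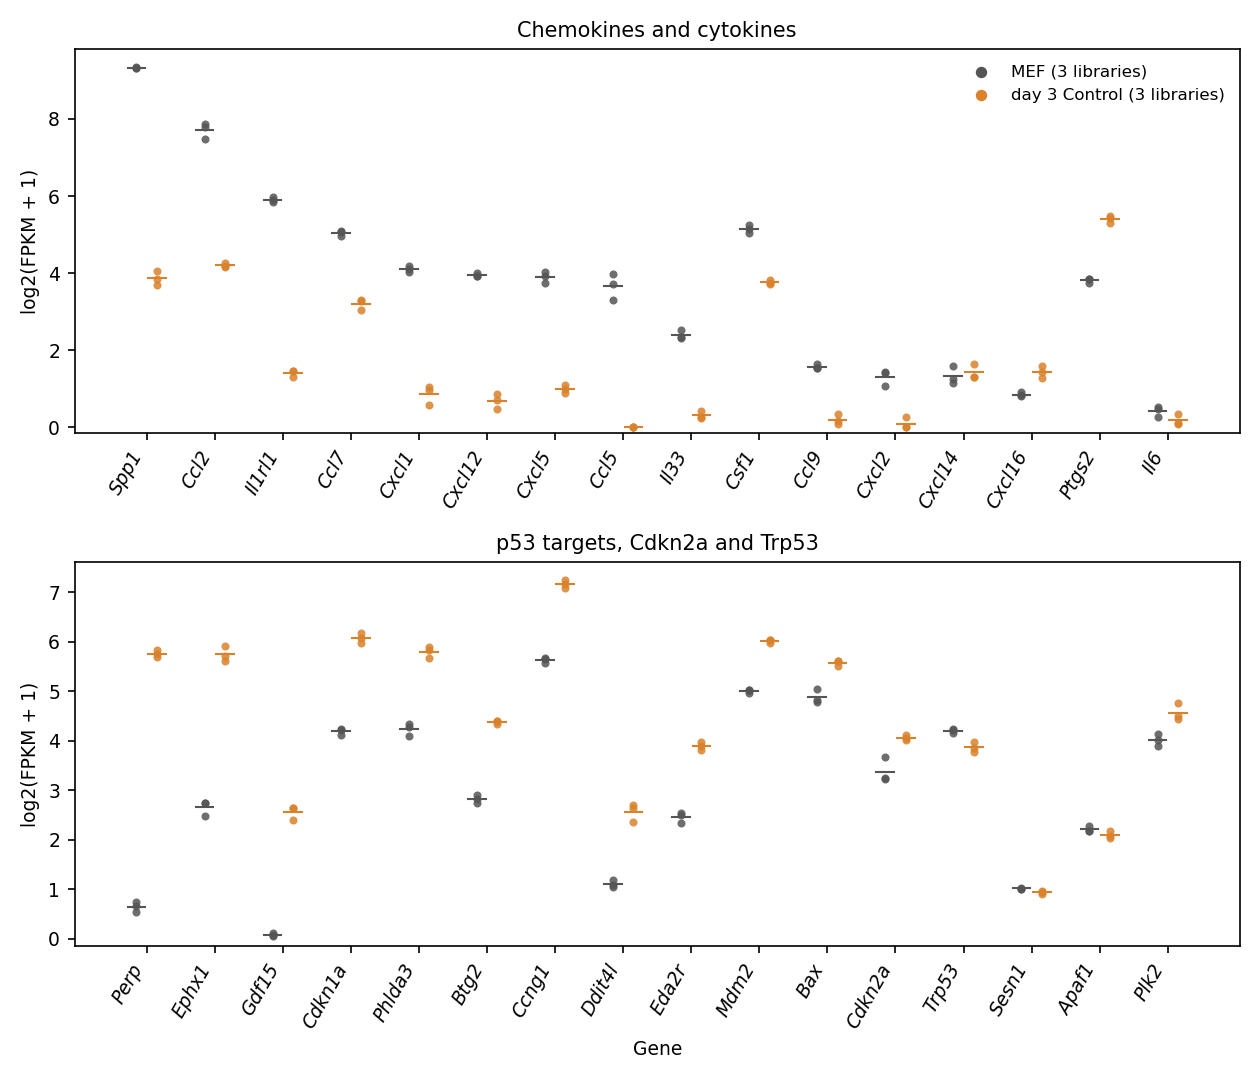
Levels of 16 chemokines and cytokines (top) and of 14 p53 targets with *Cdkn2a* and *Trp53* (bottom) in each library, as log2(FPKM + 1) on the y axis; gray points are MEFs, orange points day 3 Control, and short lines the means of 3 libraries. *Spp1*, *Ccl2* and *Cxcl1* are lower on day 3 and *Cdkn1a*, *Ccng1* and *Mdm2* higher, with no overlap.

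*Cdkn2a*, which codes for p16Ink4a and p19Arf, rose from 8.45, 8.31 and 11.6 FPKM to 15.1, 15.5 and 16.2 FPKM (log2 change 0.68, SE 0.12, adjusted p 0.00079). This call rests on the scaling: the change was 0.56 under median-ratio scaling and 0.52 after quantile normalization, below the fold threshold. The gene-level value does not separate the 2 products. *Cdkn2b*, its neighbor, was at 12.4 to 15.7 FPKM in MEFs and 12.96 to 13.62 FPKM on day 3. *Rb1* rose by 1.72, and *Hmga2*, a chromatin protein of embryonic cells, fell by 1.30. Few proliferation genes were called. Of 44 tested genes of DNA replication and G1/S 4 were called lower (*Ccne1*, *Pold1*, *E2f1* and *Cdc45*) and none higher, and of 43 mitosis genes 1 was called lower (*Pttg1*) and none higher. At the adjusted p alone 21 and 17 were lower and 2 and 2 higher, with medians of -0.23 and -0.19. Scaling changed these counts: 8 and 4 were called lower under median-ratio scaling and 9 and 7 after quantile normalization. *Ccnd1*, a cyclin that is also in the p53 list, rose by 1.24.

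Metabolic groups differed from each other. Of 18 tested antioxidant genes under the control of NRF2 8 were higher and none lower. *Nqo1*, a quinone reductase and the usual readout of this pathway, went from 10.7, 10.7 and 11.0 FPKM to 52.4, 48.4 and 46.7 FPKM. *Gsta4*, *Me1*, *G6pdx* and *Gclm* rose by 2.81, 2.16, 1.40 and 1.38. *Hmox1* did not pass, and *Txnrd1* (0.39), *Srxn1* (-0.44) and *Fth1* (-0.29) missed the fold threshold. Of 28 tested genes of glycolysis and the hypoxia response 10 were lower and 3 higher. *Slc16a3*, which exports lactate, went from 6.92, 5.31 and 7.25 FPKM to 0.416, 0.274 and 0.325 FPKM. *Bnip3*, *Vegfa*, *P4ha1* and *Slc2a1* (GLUT1) fell by 2.14, 1.74, 1.35 and 1.25, and *Slc2a3* (GLUT3) rose by 1.16. All 40 nuclear-coded respiratory chain genes were tested and 2 were called higher, *Uqcrfs1* and *Cox4i1* (0.67 and 0.66), with a median of 0.30; neither scaling alternative called any, and the median was 0.18 and 0.13 there. Nucleolar and other Myc target genes, 41 in all, had a median of 0.01 (-0.11 under median-ratio scaling), with *Odc1* (1.59) and *Nop10* (0.79) called higher and none lower. The Myc-binding E-box CACGTG stood in the promoter windows of 8 of the 36 with a window (22.2%), against 8.09% of all genes with a window.

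The *Mettl14* OE and *Mettl3* OE cells of day 3 give the same step in 2 further groups of 3 libraries, which share the MEF libraries with Control and are therefore no independent check. In a fit of the 12 libraries 1526 genes (15.4%) were called higher and 842 (8.48%) lower from MEFs to *Mettl14* OE, and 1531 (15.4%) higher and 1009 (10.2%) lower from MEFs to *Mettl3* OE. The interferon list had 36 genes lower in either arm. *Isg15* was at 0.120 to 0.254 FPKM in the *Mettl14* OE libraries and at 0.0722 to 0.334 FPKM in the *Mettl3* OE libraries. Of the chemokine list 15 were lower in either arm, and *Ccl2* lay at 17.4 to 20.6 and 15.1 to 16.5 FPKM. Of the p53 list 22 and 19 were higher, with *Cdkn1a* at 61.9 to 68.3 and 52.7 to 60.6 FPKM. Contractile genes called lower numbered 10 with *Mettl14* OE and 17 with *Mettl3* OE, beside 9 in Control. *Pou5f1* lay at 78.2 to 83.9 FPKM with *Mettl14* OE and at 102.5 to 134.5 FPKM with *Mettl3* OE, where the 3 Control libraries lay between 65.8 and 83.2 FPKM. Differences between the arms were not tested here.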

How the data were processed

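Poly(A) RNA was sequenced from MEFs and reprogramming cells with a stranded mRNA kit. Per the labels' processing notes, TopHat2 2.1.1 aligned the authors' reads (mm9) and Cufflinks 2.2.1 gave FPKM per gene, and FPKM values are all that they deposited; counts were not analysed here. The FPKM table joins 3 tables side by side, and all libraries used here lie in the first. Of 24013 lines 1 was an exact copy (*Ccl2*) and was left out. No gene is named from the 15 lines whose symbol became a date or the 4 that share a symbol. Depth estimates rest on the lowest nonzero FPKM of 2222 single-transcript genes and on GENCODE M21 lengths, which are not the authors' annotation.

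Values were analysed as log2(FPKM + 1) with limma 3.58.1 in R 4.3.3 (mean-variance trend, robust moderation) over the 6 libraries, keeping genes that reached 1 FPKM in 3 or more of them. A call needed a fold change of FPKM + 1 of at least 1.5 and a Benjamini-Hochberg adjusted p of at most 0.05 over all genes tested. The script was tested on simulated data. Members of 40 gene lists written from general knowledge were tallied by these calls. A member was said to be expressed in both groups when both means reached 1 FPKM. One that passed the filter through 1 group alone had a mean under 1 FPKM in the other. Its means had to differ, though not always by enough for a call. The genes, lists and members were chosen with earlier results of these data known, so no list is independent evidence of its direction. Named genes are the 4 factors, the 15 largest called rises and falls among genes whose groups do not overlap (small RNAs left out), up to 8 called members of each list with the largest changes, all members of a count of 5 or fewer, fibroblast markers and a few cytokine and cell cycle genes; others were chosen after their values were seen. Alternatives were pseudocounts of 0.1 and 0.5, no filter, a filter at 5 FPKM, 2 other scalings, leaving out small RNAs, fits of 12 and 48 libraries, no robust moderation, a replicate block, and leaving out each library. Figures used Python and matplotlib. Some members of the lists are counted in the tallies but not reported here by name.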

Additional observations from a re-analysis of the deposited data

How the results depend on the processing

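Of the counts of called genes, for the whole table and for the 13 list counts of 10 or more, only the filter at 5 FPKM moved any by over 1.5 times. It left 4956 genes, with 842 called higher and 468 lower, and called 7 matrix proteases and 16 interferon-stimulated genes lower and 6 epithelial genes higher, where genes low in MEFs or on day 3 are no longer tested. Leaving out 1 library at a time gave 1467 to 1602 genes higher and 836 to 916 lower. Pseudocounts of 0.1 and 0.5 gave 1945 and 1723 higher and 1098 and 993 lower. With small RNAs left out 1222 were higher and 1054 lower, and without a filter, over 21126 genes, 1656 and 967. Among the 4 factors, the 15 largest rises and falls, the fibroblast markers and the cytokine and cell cycle genes of the rule, only *Cdkn2a* lost its call, under median-ratio scaling (0.56), quantile normalization (0.52) and with small RNAs left out (0.56). Of the 356 called members of all lists, 17, 21 and 18 lost the call under these settings, *Eng*, *Uqcrfs1* and *Cox4i1* among them; none changed sign under any alternative. List medians moved with the pseudocount and the filter: at a pseudocount of 0.1 they were -3.15 for interferon-stimulated genes, -3.27 for chemokines and 5.11 for keratinocyte genes, and with the filter at 5 FPKM -2.47, -3.24 and 4.15, beside -1.79, -1.60 and 2.96. The MEF and day 3 libraries share replicate numbers, and the labels do not say whether same-numbered libraries are paired. Correlations of their deviations ranged from -0.104 to 0.167, and those of other numbers from -0.193 to 0.270. With 3 libraries per group these values cannot exclude a pairing. A fit with a replicate block called 1520 higher and 874 lower. No counts were used, so the counting error of low values is unknown.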

Other observations

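Secreted signals of fibroblasts also changed. Of 29 tested growth factors, binding proteins and receptors 15 were called lower and 6 higher. *Igf2*, the fetal insulin-like growth factor, went from 176, 168 and 176 FPKM to 33.3, 37.8 and 36.5 FPKM, and *Mdk* (midkine), *Fgfr1*, *Fgf7* and *Ptn* fell by 3.16, 1.92, 1.80 and 1.65. *Fgf18*, *Nrg1* and *Igfbp6* rose by 2.88, 2.83 and 1.90. All 11 tested genes of secreted Wnt signaling were called, 7 lower and 4 higher, although 7 of them passed the filter through 1 group alone. *Wnt5a*, *Sfrp2* and *Dkk3* fell by 1.81, 2.41 and 2.29, while *Notum* and *Axin2*, feedback inhibitors that Wnt signaling itself induces, rose by 2.17 and 0.79. *Tcf7* rose by 1.11, and like *Notum* and *Axin2* it passed the filter through day 3 alone. *Nkd2* and *Wisp1* of the same list fell by 0.66 and 0.80, so the list gives no single direction of Wnt signaling. In the BMP and activin list 7 of 21 were higher and 6 lower. The antagonist *Grem1* fell by 1.22, and *Nog*, another antagonist, and *Bmp6* rose by 1.76 and 1.74.

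Of 20 tested imprinted genes 11 were lower and 3 higher. *H19*, the noncoding RNA expressed from the maternal allele beside *Igf2*, went from 447.5, 476 and 498 FPKM to 101, 91.9 and 84.9 FPKM, and *Dlk1*, *Meg3* and *Rian* of another imprinted cluster fell by 2.79, 1.67 and 1.24. *Snrpn* and *Mest* rose by 1.30 and 0.81, and *Phlda2* was listed at 0 in the 3 MEF libraries and lay at 1.97, 1.87 and 2.98 FPKM on day 3. Of 23 tested Hox genes 2 were called higher (*Hoxd13* and *Hoxa7*, 0.81 and 0.66) and 1 lower (*Hoxb7*, -0.59). None of 19 tested m6A writers, erasers and readers was called, with changes from -0.34 to 0.29; without the fold threshold 2 were higher and 1 lower. Of 25 tested genes of DNA methylation, TET and Polycomb *Ezh1* was called higher (1.18) and *H2afx* and *Suv39h1* lower (-0.80 and -0.60).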
